A study of Mus musculus with 24 samples.

Results

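The genes described here are the regulators of the cohesin ring and its boundary factor CTCF, chosen by symbol in the deposited expression table: Ctcf, Rad21, Stag1, Stag2, Nipbl, Mau2, Wapl, Pds5a, Pds5b and Esco1. All 10 were found, each in 1 row, among 14922 genes, and none was removed by a filter on low values. The SMC subunits of the ring were kept apart and are given with the other genes of the pathway.

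RNA was measured in primary female neural stem cells (NSCs), the dividing precursors of neurons and glia, derived from E14.5 embryonic cortex and cultured for fewer than 10 passages. FVB_MD43 cells were FVB/NJ and homozygous for the chemically induced MommeD43 missense allele of Smchd1 (Smchd1MommeD43/MommeD43), and FVB_WT cells were Smchd1+/+ on the same background. B6GFP_MD43 cells were C57BL/6J and, by the study's account, homozygous for the same change, made by CRISPR editing in a Smchd1-GFP fusion allele. B6GFP_WT cells carried the fusion without it. The labels give these controls as Smchd1+/+ and the study as homozygous for Smchd1-GFP, so by the study's account every B6GFP cell carried GFP and no FVB cell did. Strain and fusion cannot be told apart in any comparison of B6GFP with FVB. Of 24 labelled columns, 2 equal the mean of the other columns of their group in every gene and were left out, which left 22 libraries: 6 of 5 lines in FVB_WT, 5 of 4 lines in FVB_MD43, 6 of 4 lines in B6GFP_WT and 5 of 4 lines in B6GFP_MD43. Batch 1 held both strains, batch 2 FVB alone and batch 3 B6GFP alone. The deposited values were corrected for batch, which set the levels of batches 2 and 3 relative to batch 1. Lines found only in batch 2 or 3 thus add no independent measure of strain. The study's methods name sex and strain, beside batch, among the things corrected for. Strain differences remained in the deposited values, as given below, and what such a step did to them was not tested.

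Cohesin is a ring of SMC1A, SMC3 and the kleisin RAD21 that, with a STAG subunit, holds sister chromatids together and extrudes loops of chromatin. NIPBL and MAU2 load the ring and NIPBL drives extrusion, WAPL with PDS5 releases it, ESCO1 acetylates SMC3 and so protects the ring from release, and CTCF bound to DNA halts extrusion at the boundaries of domains. SMCHD1 is a noncanonical SMC protein of the inactive X chromosome and of other silent clusters, where it acts on long-range chromatin contacts and insulation. The levels of these genes therefore bear on whether the machinery of loops and boundaries differed in RNA between the groups compared.

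The stretches of 250 bases before the RefSeq start site are shown for Ctcf and for the members whose level differed between the strains, as far as RefSeq's promoter table for GRCm38.p6 held them (6 of 10 members matched). Capitals mark the letters CCCTC, the repeat after which CTCF is named, or its reverse complement GAGGG, searched on both strands, and each line reads 5′ to 3′ on the strand of the gene. Ctcf lies at chr8:105636288-105636537 on the plus strand, Stag1 at chr9:100643198-100643447 on the plus strand, Wapl at chr14:34673678-34673927 on the plus strand, Pds5a at chr5:65698237-65698486 on the minus strand and Mau2 at chr8:70042735-70042984 on the minus strand.
Ctcf: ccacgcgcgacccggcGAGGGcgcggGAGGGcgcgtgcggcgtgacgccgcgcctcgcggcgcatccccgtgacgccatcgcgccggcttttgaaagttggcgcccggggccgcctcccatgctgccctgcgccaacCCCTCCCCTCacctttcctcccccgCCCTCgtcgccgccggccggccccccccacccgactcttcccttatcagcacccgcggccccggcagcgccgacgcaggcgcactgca
Stag1: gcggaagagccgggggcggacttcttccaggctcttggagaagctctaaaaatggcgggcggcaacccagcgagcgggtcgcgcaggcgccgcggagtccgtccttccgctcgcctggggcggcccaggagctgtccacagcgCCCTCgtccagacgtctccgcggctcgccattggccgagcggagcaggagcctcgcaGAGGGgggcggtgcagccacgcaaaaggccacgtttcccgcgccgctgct
Wapl: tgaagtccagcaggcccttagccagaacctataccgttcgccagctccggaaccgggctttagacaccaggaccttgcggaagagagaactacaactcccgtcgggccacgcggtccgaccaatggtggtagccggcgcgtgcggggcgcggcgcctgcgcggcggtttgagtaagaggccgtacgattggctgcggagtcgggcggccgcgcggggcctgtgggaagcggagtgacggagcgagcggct
Pds5a: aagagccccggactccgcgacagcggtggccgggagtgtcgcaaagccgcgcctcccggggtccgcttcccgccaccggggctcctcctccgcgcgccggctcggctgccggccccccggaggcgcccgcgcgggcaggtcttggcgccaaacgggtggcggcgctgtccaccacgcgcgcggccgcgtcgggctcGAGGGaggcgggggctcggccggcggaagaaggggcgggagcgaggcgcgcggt
Mau2: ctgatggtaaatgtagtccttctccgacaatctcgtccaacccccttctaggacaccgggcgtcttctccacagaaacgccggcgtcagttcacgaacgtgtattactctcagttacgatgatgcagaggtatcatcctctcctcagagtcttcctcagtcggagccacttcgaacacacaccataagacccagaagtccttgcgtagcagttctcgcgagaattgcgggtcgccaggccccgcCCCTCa

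The letters CCCTC occurred 5 times before Ctcf, 2 times before Stag1, 1 time each before Pds5a and Mau2, and not in the window of Wapl. Of 32851 windows of that length in the table, 60.5% held them at least once. The Ctcf, Stag1, Wapl and Pds5a windows were rich in CG dinucleotides, with 40, 31, 32 and 44 against a median of 6 over all windows. The Mau2 window held 18, fewer than these but also above the median (percentile 78.3). The Pds5b window, which is not shown, held no CCCTC and 36 CG dinucleotides. These matches describe letters and say nothing of binding.

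All 10 genes were expressed in every library, with group means between 4.86 and 8.89 log2 CPM (CPM, the reads of a gene after scaling for library size, taken here on the log2 scale). Rad21, the kleisin, had the highest level, with a mean over the groups of 8.84 log2 CPM (459 CPM), above 98.6% of all genes. Stag2 (8.31) and Ctcf (7.53) followed, and Esco1 was lowest at 4.89 log2 CPM (29.7 CPM). CPM does not account for the length of a transcript, so levels of different genes were also compared per kilobase of annotated exon. On that log2 CPM per kilobase scale Rad21 again led at 6.86, followed by Stag2 at 5.65 and Ctcf at 5.61, which differed in each group by less than the SD of Stag2 over lines. Stag1 stood at 4.57, Pds5b at 4.23, Wapl at 4.21, Pds5a at 3.98, Nipbl at 3.96, Mau2 at 3.88 and Esco1 at 2.71. The order of neighbours changed with the group. Pds5b was at 4.26 and Wapl at 4.13 in FVB_MD43, but at 4.16 and 4.31 in B6GFP_WT. Pds5a, Nipbl and Mau2 lay at 3.89, 3.91 and 3.96 in FVB_WT, closer than the SD of Pds5a (0.137), whereas in B6GFP_MD43 Pds5a at 4.12 ± 0.106 (SD, n = 4) stood above Mau2 at 3.85 ± 0.101. Divided by coding length instead, Mau2 moved from rank 9 to rank 4 and Nipbl from rank 8 to rank 9, while Rad21 and Esco1 kept ranks 1 and 10.

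**Figure D1:**
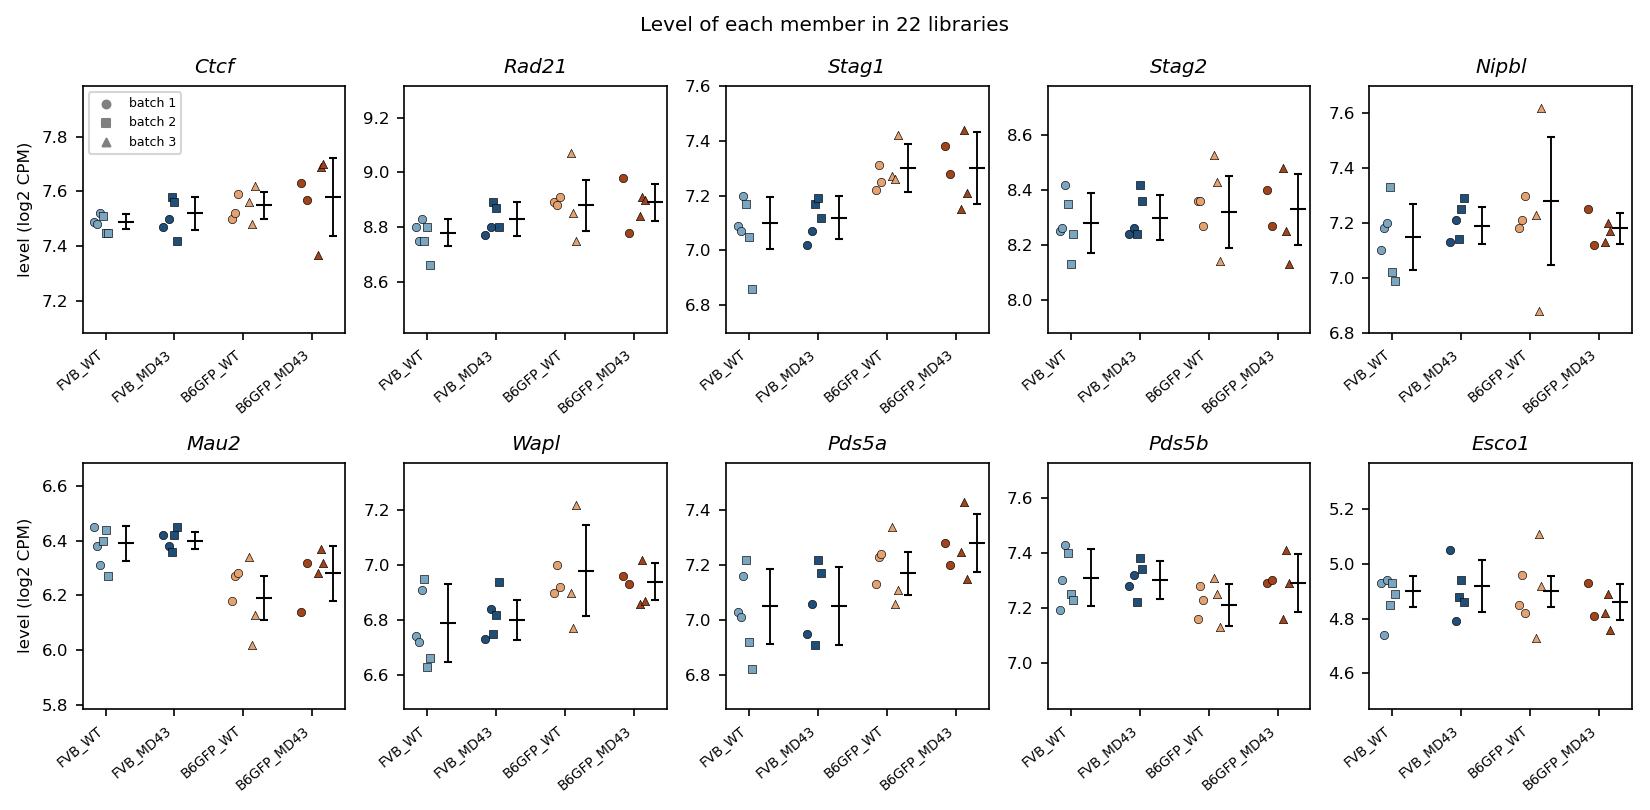
Level of each gene in log2 CPM (vertical axis, the same span of 0.9 in every panel) by group, with 1 point per library shaped by batch and bars at the mean ± SD over lines. The FVB_WT and FVB_MD43 points overlap in every panel, as do B6GFP_WT and B6GFP_MD43, while Stag1 sits higher and Mau2 lower in B6GFP.

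The spread between lines was small. The SD over lines ranged from 0.0283 log2 CPM for Ctcf in FVB_WT to 0.235 for Nipbl in B6GFP_WT. Libraries made from 1 line in 2 batches differed by a median of 0.055 to 0.161 log2 CPM over the 10 genes, and the largest such gap was 0.42 for Nipbl in B6GFP_WT replicate 3. Set against the deepest library, the depth of batch 1 was 0.526 to 0.893, that of batch 2 only 0.137 to 0.19, and that of batch 3 0.435 to 1. The lowest quality weights of the fit, 0.101 to 0.348, belonged to 4 B6GFP libraries of batch 3.

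The RNA of Smchd1, the mutated gene, had group means of 7.27 log2 CPM in FVB_WT, 7.36 in FVB_MD43, 6.96 in B6GFP_WT and 7.16 in B6GFP_MD43. A missense change need not alter its level, so these values do not check the labels. The first question was whether MommeD43 altered the RNA of the machinery that SMCHD1 may work beside. It did not do so detectably in either strain. In FVB the fitted log2 changes of the 10 genes ran from -0.03 (Stag1) to 0.04 (Esco1), and 0 of 10 passed the threshold of an adjusted p under 0.05, where 0.0737% of all genes did. The smallest adjusted p among them was 0.945, and all 10 intervals of 95% held 0. Together they reached from -0.12 to 0.17 log2 units, so a fall of more than 8.0% or a rise of more than 12.5% lay outside every one of them. These bounds belong to the weighted fit, where the batch 1 libraries of FVB_WT and FVB_MD43 replicate 2 had the highest weights (4.26 and 4.9). Without FVB_MD43 replicate 2 the change of Esco1 was 0.21, beyond them. In B6GFP the changes ran from -0.03 (Nipbl) to 0.05 (Ctcf), 0 of 10 passed against 0% of all genes, and the intervals reached from -0.16 to 0.18. At an unadjusted p under 0.05 stood 0 of the 10 and 319 genes in all (2.14%) in B6GFP, and 0 of the 10 and 1023 genes (6.86%) in FVB.

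For Ctcf itself the libraries of FVB_WT lay at a lowest value of 7.45, a median of 7.49 and a highest of 7.52 log2 CPM. Those of FVB_MD43 were 7.47, 7.50, 7.58, 7.56 and 7.42. The mutant libraries spanned the range of the controls on both sides, and the fitted change was 0.00 (SE 0.0356, interval -0.07 to 0.08). In B6GFP_WT Ctcf lay between 7.48 and 7.62 with a median of 7.54, and in B6GFP_MD43 it was 7.63, 7.57, 7.37, 7.69 and 7.70. The lowest and the highest values of the strain thus both came from mutant cells, and the change was 0.05 (SE 0.0463, adjusted p = 1.0).

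Rad21 changed by 0.03 in FVB and by -0.02 in B6GFP. Of the STAG subunits, which give cohesin its alternative forms, Stag1 changed by -0.03 and 0.04, and the X-linked Stag2 by -0.02 in each strain. The loaders Nipbl and Mau2 changed by 0.02 and 0.03 in FVB and by -0.03 and -0.02 in B6GFP. The release factor Wapl changed by 0.02 and 0.00, its partners Pds5a and Pds5b by -0.01 and -0.02 in FVB and by 0.04 each in B6GFP, and the acetyltransferase Esco1 by 0.04 and 0.00. None of these values passed the test.

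Within single batches the range of the 10 changes was -0.08 to 0.08 in batch 1 and 0.00 to 0.19 in batch 2 for FVB, and -0.03 to 0.08 in batch 1 and -0.24 to 0.10 in batch 3 for B6GFP, with 0 members past the threshold in each. The value of -0.24 belonged to Stag2. One line decided a call: without FVB_MD43 replicate 2, a line with 2 libraries, Esco1 rose by 0.21 (adjusted p = 0.0174), together with 976 genes in all in place of 11.

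**Figure D2:**
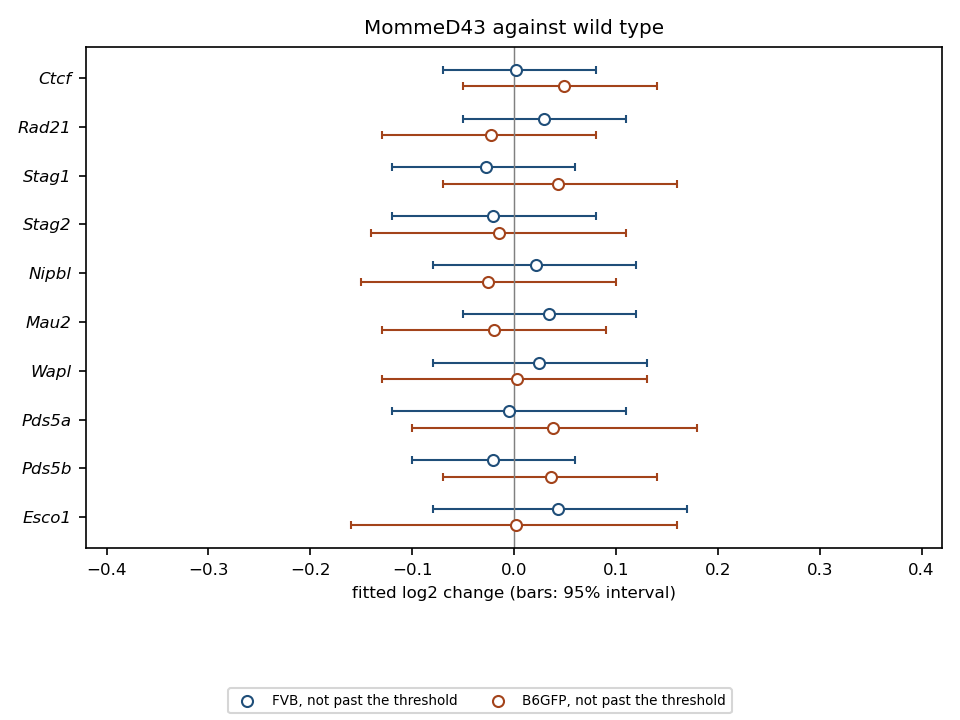
Fitted log2 change of MommeD43 against wild type (horizontal axis, with 95% intervals) for each gene in FVB and in B6GFP. All 20 open points lie between -0.03 and 0.05, and all intervals cross 0.

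The effect of MommeD43 did not differ detectably between the strains for any member. The difference, B6GFP minus FVB, ran from -0.05 (Rad21, Nipbl and Mau2) to 0.07 (Stag1), and 0 of 10 passed, as 0% of all genes did. Its intervals were wider, from -0.25 for Esco1 to 0.22 for Stag1 and Pds5a. For each gene, a strain-specific effect within its own interval was not excluded.

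The second comparison set the B6GFP lines against the FVB lines of the same Smchd1 genotype. In wild type 5 of 10 members passed, beside 41.1% of all genes. Stag1, Wapl, Pds5a and Rad21 were higher in B6GFP, 4 of 10 where 17.9% of all genes were called higher, and Mau2 was lower, 1 of 10 where 23.2% were called lower. In MommeD43 cells 3 of 10 passed beside 34.3% of all genes: Stag1 and Pds5a were higher, where 14.7% of all genes were called higher, and Mau2 was lower, where 19.6% were. The shares of members called in either direction are near those of the whole table. The median change of the 10 was 0.06 in wild type and 0.07 in MommeD43, and that of all genes was -0.02 and -0.03.

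Stag1, the STAG form that is especially tied to telomere cohesion and to CTCF sites, was higher in B6GFP in both genotypes. In FVB_WT its libraries ran from 6.86 to 7.20 log2 CPM with a median of 7.08, and in B6GFP_WT from 7.22 to 7.42 with a median of 7.26. Every B6GFP_WT library lay above every FVB_WT library, although the batch correction set the levels of batches 2 and 3. In batch 1, which held both strains, B6GFP_WT stood at 7.22, 7.31 and 7.25 and FVB_WT at 7.09, 7.07 and 7.20. The fitted change was 0.18 (SE 0.0489, adjusted p = 0.00637), a rise of 13.1%. In FVB_MD43 the values were 7.02, 7.07, 7.17, 7.19 and 7.12, and in B6GFP_MD43 they were 7.38, 7.28, 7.15, 7.44 and 7.21. There the groups overlapped through 1 library at 7.15, and the change was 0.25 (SE 0.0575, adjusted p = 0.00223).

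Mau2, the partner of NIPBL in loading, moved the other way. It lay between 6.27 and 6.45 in FVB_WT with a median of 6.39, and between 6.02 and 6.34 in B6GFP_WT with a median of 6.22. The means of the lines did not overlap, which held for Stag1 and Mau2 among the 10 and for 15.9% of all genes. Lines found only in batch 2 or 3 took their level from the batch correction. In batch 1 Mau2 was 6.45, 6.38 and 6.31 in FVB_WT and 6.18, 6.27 and 6.28 in B6GFP_WT. In FVB_MD43 its values were 6.42, 6.38, 6.36, 6.42 and 6.45, and in B6GFP_MD43 6.14, 6.32, 6.28, 6.37 and 6.32. All 4 B6GFP_MD43 lines lay below the FVB_MD43 mean, although 1 line reached into its range. No member had fully separate lines in the MommeD43 comparison, where 21.3% of all genes did. In wild type it fell by 8.5% (change -0.13, SE 0.0452, adjusted p = 0.0278). In MommeD43 it fell by 11.9% (change -0.18, SE 0.0532, adjusted p = 0.0112).

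Wapl, which opens the ring and frees cohesin from chromatin, ran from 6.63 to 6.95 in FVB_WT with a median of 6.73 and from 6.77 to 7.22 in B6GFP_WT with a median of 6.91. The groups overlapped, and the change was 0.16 (SE 0.0547, adjusted p = 0.0205). In MommeD43 cells it was 0.14 (adjusted p = 0.0928) and did not pass. That non-call of Wapl depended on the fit. It passed with line means (0.15, adjusted p = 0.0432) and with median centring (0.20, adjusted p = 0.026), but not in batch 1 alone (0.16, adjusted p = 0.18). Pds5a had a median of 7.02 in FVB_WT and 7.18 in B6GFP_WT, and changed by 0.16 (SE 0.06, adjusted p = 0.0434). In FVB_MD43 it stood at 6.95, 7.06, 6.91, 7.22 and 7.17, and in B6GFP_MD43 at 7.28, 7.20, 7.25, 7.43 and 7.15. Only 2 B6GFP_MD43 libraries fell within the FVB_MD43 range, and the change was 0.20 (SE 0.0706, adjusted p = 0.0334). Rad21 rose by 0.13 in wild type (SE 0.0447, adjusted p = 0.0217) and had a value of 0.08 in MommeD43 (adjusted p = 0.248). In MommeD43 Rad21 passed with line means (0.15, adjusted p = 0.00891) and without B6GFP_MD43 replicate 3 (0.17, adjusted p = 0.00169). It was -0.02 without B6GFP_MD43 replicate 1.

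The other 5 members did not pass in either genotype. The change was 0.05 and 0.09 for Ctcf, 0.06 and 0.06 for Stag2, 0.05 and 0.00 for Nipbl, -0.09 and -0.04 for Pds5b, and 0.06 and 0.02 for Esco1, in wild type and in MommeD43. For Ctcf the intervals were -0.04 to 0.13 and -0.01 to 0.19, so a difference of that size was not shown to be absent. The non-call of Ctcf in MommeD43 depended on the fit. It passed with line means (0.13, adjusted p = 0.0102). Ctcf also passed without FVB_MD43 replicate 2 (0.11), B6GFP_MD43 replicate 3 (0.13) or B6GFP_MD43 replicate 4 (0.12). Stag2 passed there without B6GFP_MD43 replicate 3 (0.12).

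**Figure D3:**
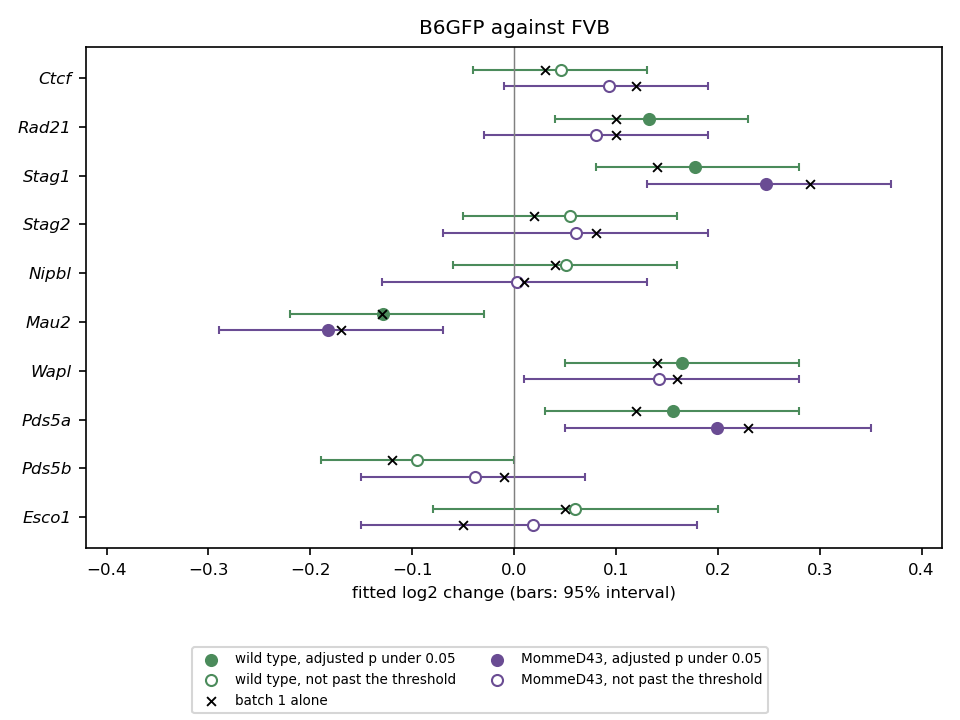
Fitted log2 change of B6GFP against FVB (horizontal axis, with 95% intervals) for each gene in wild type and in MommeD43, filled where the adjusted p was under 0.05, with crosses for batch 1 alone. Stag1 lies right of 0 and Mau2 left of 0 in both genotypes, and the crosses fall on the same side as the points for each gene except Esco1 in MommeD43.

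The strain calls rested on how libraries were weighted. Without quality weights 0 of 10 members passed in either genotype, where 1259 genes did in wild type and 1017 in MommeD43. The fitted changes were then 0.20 for Stag1, -0.18 for Mau2, 0.20 for Wapl, 0.15 for Pds5a and 0.10 for Rad21 in wild type, and 0.18 for Stag1, -0.12 for Mau2 and 0.22 for Pds5a in MommeD43. Only batch 1 held both strains, and in it alone 0 members passed in wild type and 1 in MommeD43, with Stag1 at 0.14 (adjusted p = 0.0567) and 0.29 (adjusted p = 0.0122), Mau2 at -0.13 and -0.17, Wapl at 0.14 and 0.16, Pds5a at 0.12 and 0.23, and Rad21 at 0.10 and 0.10. In that batch 5095 genes in all passed in wild type and 3596 in MommeD43. Leaving out FVB_WT replicate 2 left 0 members past the threshold in wild type (4014 genes in all). Leaving out B6GFP_WT replicate 2 left 1 (4546 genes). In MommeD43, 1 member was left without B6GFP_WT replicate 2 (4936 genes) or without B6GFP_MD43 replicate 1 (6288 genes). There 5 passed without FVB_MD43 replicate 2 (6000 genes), and 7 without B6GFP_MD43 replicate 3 (8179 genes). The scale also mattered. With each library centred on its median, 58.6% of the called genes were higher in B6GFP in wild type and 57.1% in MommeD43, in place of 43.7% and 42.9%. Mau2 then kept its sign but not its call (-0.06 and -0.11), whereas Ctcf passed with 0.11 (adjusted p = 0.0435) and 0.16 (adjusted p = 0.0225). In both strain comparisons the sign of Stag1, Wapl, Pds5a and Mau2 was the same under every alternative run.

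Reads of FVB cells were mapped to a genome built from C57BL/6J, and the part of that in these values was not tested. Nor was that of the exonic bases of Pds5a that overlap annotated genes of the opposite strand (255 of Gm42727 and 119 of Gm42729), since no source used here says whether counting used strand. The NSC markers Nes, Sox2, Vim, Fabp7 and Pax6 were all expressed, and their summed level ran from 12.14 to 12.42 log2 CPM in FVB and from 12.17 to 12.72 in B6GFP. The 4 oligodendrocyte markers summed to between 2.14 and 4.48 in FVB and between -0.49 and 1.54 in B6GFP, so they moved with strain. The 4 astrocyte markers summed to 6.41 to 8.01 and to 4.9 to 7.0. The 5 neuron markers summed to 9.48 to 9.88 and to 9.62 to 10.1, nearly all of it Map2, and the 4 markers of fibroblasts and endothelium to -0.55 to 0.91 and to -1.56 to 2.66. None of the 4 microglia markers was in the table. The part of these cells in the strain differences was not tested, and in such bulk samples fewer cells of a type and less RNA per cell cannot be told apart.

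Because paralogs fill the same place in the complex, their ratio was taken within each line, per kilobase of exon, as a description. The log2 ratio of Stag1 to Stag2 was -1.16 ± 0.0734 (SD, n = 5) in FVB_WT and -1.16 ± 0.076 (n = 4) in FVB_MD43, so Stag2 was the more abundant form. It was -1.0 ± 0.207 (n = 4) in B6GFP_WT and -1.0 ± 0.221 (n = 4) in B6GFP_MD43. The B6GFP lines were spread from -1.31 to -0.69, and the highest of them, B6GFP_WT replicate 4, is the library with the lowest weight. The log2 ratio of Pds5a to Pds5b was -0.37 ± 0.0848 in FVB_WT and -0.37 ± 0.0769 in FVB_MD43, against -0.15 ± 0.0373 in B6GFP_WT and -0.12 ± 0.0897 in B6GFP_MD43. No FVB line was above -0.28 and no B6GFP line was below -0.24, so all 9 FVB lines lay below all 8 B6GFP lines. Over all pairs of the 9911 named genes with a mean of at least 3 log2 CPM, the lines of the strains were fully separate in one direction or the other in 7.19%. PDS5A and PDS5B are the alternative partners of WAPL and are both needed for the balance of release and cohesion.

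The log2 ratio of the loader Nipbl to the releaser Wapl, per kilobase of exon, was -0.21 ± 0.0473 in FVB_WT, -0.17 ± 0.0287 in FVB_MD43, -0.27 ± 0.0692 in B6GFP_WT and -0.33 ± 0.0441 in B6GFP_MD43. Which gene stood higher depended on the scale, since in CPM the mean log2 ratio was 0.24 to 0.4 and per kilobase of coding sequence Nipbl was at 4.13 and Wapl at 5.03. Per kilobase of exon the 4 B6GFP_MD43 lines, at -0.28 to -0.39, lay below the 4 FVB_MD43 lines, at -0.14 to -0.21, and the lines of these groups were fully separate in 23.2% of all pairs of those 9911 genes. The limit set by the batch correction holds for these lines too. In wild type the ranges overlapped, with B6GFP_WT replicate 4 at -0.17.

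**Figure D4:**
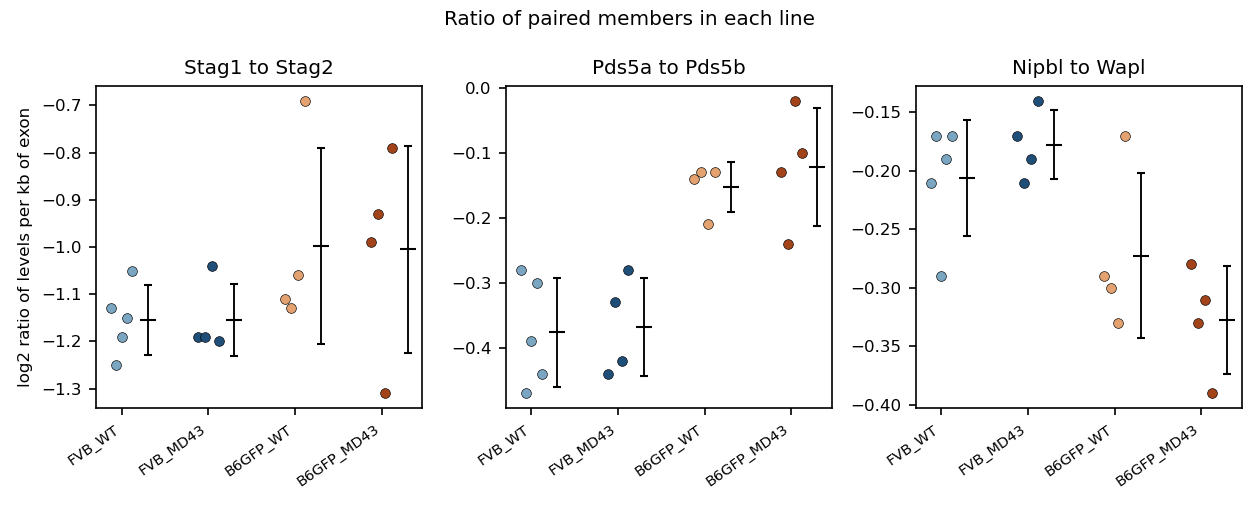
Log2 ratio of levels per kilobase of exon (vertical axis, a separate scale in each panel) for Stag1 to Stag2, Pds5a to Pds5b and Nipbl to Wapl, with 1 point per line and bars at the mean ± SD over lines. The Pds5a to Pds5b ratio is -0.28 or lower in every FVB line and -0.24 or higher in every B6GFP line, and MommeD43 lines overlap their controls in all 3 panels.

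Correlations between members over libraries were taken once the group and batch means were removed. Nipbl and Wapl, which act in opposite directions on the ring, had the highest correlation of the 45 pairs (Pearson's r = 0.88 over 22 libraries). It was 0.82 without the 2 libraries of lowest weight. Pds5a and Pds5b were at 0.72 and Stag1 and Wapl at 0.69, and at 0.68 and 0.62 without those libraries. The order below the first pair changed with them, since Wapl and Pds5a went from 0.56 to 0.76 and Nipbl and Pds5a from 0.47 to 0.73. The median over pairs was 0.23, and 32 of 45 were above 0, where over all pairs of the 9911 genes the median was 0.01 and 50.9% were above 0. Esco1 and Mau2 had the lowest value at -0.47, and Ctcf and Stag2 had -0.44. Stag1 and Stag2 were at 0.03, and at 0.29 without those 2 libraries, where the median over pairs was 0.3. The libraries share depth, normalisation and in part lines, and these values carry no test.

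**Figure D5:**
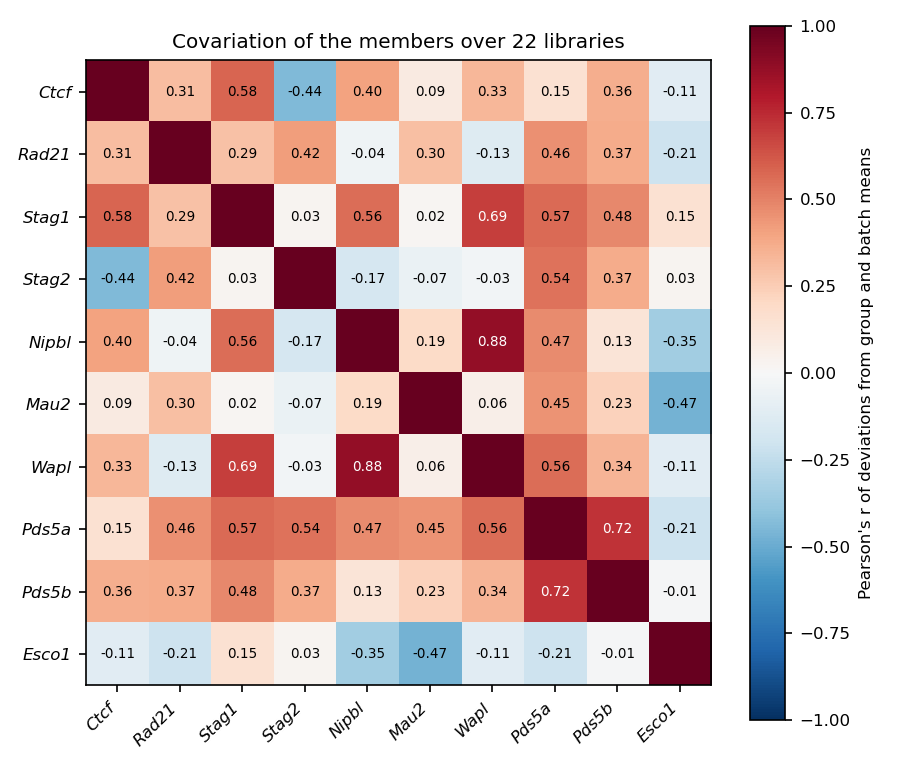
Pearson's r between members over 22 libraries (colour and printed value), after the mean of each group and batch was removed. Nipbl with Wapl (0.88) is the highest value, also without the 2 libraries of lowest weight (0.82), and Esco1 is at or below 0.15 with every other gene.

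Among 9910 genes with a mean of at least 3 log2 CPM, those most like Ctcf by the same measure were Mtf1, a metal-responsive transcription factor (r = 0.87), Pias1, a SUMO ligase (0.84), Wbp11, a splicing factor (0.84), Kdm1a, a histone demethylase (0.84), and Mcmbp, a binding partner of the replicative helicase (0.83). Each was at 0.81 or above without the 2 libraries of lowest weight. None was a member. The highest member was Stag1 at 0.58, ranked 611, and Rad21 stood at 0.31, ranked 2980.

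The rest of the pathway was taken from fixed lists and described by counts. For MommeD43 against wild type, 0 genes of any list passed in FVB or in B6GFP, and 0 passed in the difference between strains. The 2 core SMC subunits, Smc1a and Smc3, changed by 0.00 and 0.02 in FVB and by 0.01 and 0.05 in B6GFP. In the strain comparison both were higher in B6GFP in wild type, Smc1a by 0.22 (adjusted p = 0.000544) and Smc3 by 0.19 (adjusted p = 0.00295), and both by 0.22 in MommeD43.

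Of the 5 measured genes for acetylation, sororin and shugoshin, 3 were higher and 1 lower in B6GFP wild type, and 1 was higher and 2 were lower in MommeD43. Of all genes, 17.9% were called higher and 23.2% lower in wild type, and 14.7% and 19.6% in MommeD43. With median centring the MommeD43 counts were 3 higher and 1 lower, and in batch 1 alone 2 higher and 0 lower. Hdac8, the deacetylase that recycles SMC3, was lower by 0.56 in wild type (change -0.56, adjusted p = 1.84e-05) and by 0.41 in MommeD43 (change -0.41, adjusted p = 0.00262). Cdca5, which encodes sororin, the antagonist of WAPL, was higher by 0.31 in wild type (adjusted p = 0.00418), and Sgo1, the protector of centromeric cohesin, by 0.25 and 0.27. Among the 5 genes for cleavage and mitotic removal, 1 was higher and 1 lower in wild type and 1 was lower in MommeD43. The lower gene in both was Pttg1, which encodes securin, the inhibitor of separase. Its mean was 5.72 log2 CPM in FVB_WT, 5.75 in FVB_MD43, 3.80 in B6GFP_WT and 3.70 in B6GFP_MD43, with changes of -1.93 (adjusted p = 5.02e-14) and -2.04 (adjusted p = 5.2e-13). The gene called higher was Aurkb, a mitotic kinase (0.14, adjusted p = 0.0497).

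Of 12 boundary, loop and loading factors, 2 were higher and 2 lower in wild type and 3 higher and 2 lower in MommeD43. These counts are near the shares of all genes called in either direction, 41.1% in wild type and 34.3% in MommeD43. Vezf1, a zinc finger protein of insulator elements, was higher by 0.42 and 0.49, and Med1, a Mediator subunit, was lower (-0.45 and -0.44). Of 5 meiotic or germline forms only Rec8 and Stag3 were in the table, at group means no higher than 2.36 log2 CPM. Rec8 was called higher in B6GFP wild type (1.42, adjusted p = 0.00707) at a mean of only 1.10. Of 8 cell cycle genes, 6 were higher in B6GFP wild type and 3 in MommeD43, with median changes of 0.20 and 0.17. Over all genes 17.9% and 14.7% were called higher. Mcm6 rose by 0.31 and 0.29 and Mcm2 by 0.29 and 0.22. Ccnb1 and Ccne2 passed in neither genotype (0.06 and 0.08 in wild type, -0.03 and 0.08 in MommeD43). The part of the cell cycle genes in the differences of Stag1, Pds5a and the SMC subunits was not tested. Without quality weights 0 SMC subunits and 0 cell cycle genes passed in either genotype. Pttg1 and Vezf1 passed in both genotypes without weights and in batch 1 alone, and Hdac8 and Med1 passed in wild type in each of these fits.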

How the data were processed

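Poly(A) RNA-seq libraries were made with a TruSeq mRNA kit from 100 ng of RNA. Per the labels, reads were trimmed with Trim Galore 0.4.4 and mapped with HISAT2 2.0.5 to GRCm38.p6, and limma 3.40.6 was used. The counting program and strand setting are not given in the sources used here. The values deposited by the authors are log2 CPM for 14922 genes, already corrected for batch by the authors (no gene had a batch term above 1e-06 in a fit without weights), and no counts were used. Absolute depth is unknown. Depth relative to the deepest library was read within each batch from steps above a gene's lowest value there, which a shift per gene and batch does not change, where all 3143 values were whole multiples of 1 step within a tolerance of 2%, and no counting intervals are given.

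Linear models of group and batch were fitted to all genes with limma 3.58.1 in R 4.3.3, with array quality weights (0.1 to 4.9), the line as a block (consensus correlation 0.0831) and a mean-variance trend. There were 16 residual and 4.86 prior degrees of freedom. The Benjamini-Hochberg adjustment took in all 14922 genes (threshold 0.05 for an adjusted p). Fitted changes weight libraries unequally and so differ from the differences of group means. Lines are separate cultures per the labels, and libraries of 1 line in 2 batches are technical repeats. The fit was tested on simulated data. The 2 columns equal to the mean of their group (within 1e-06) hold no measurement of their own.

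Positions and exon and coding lengths came from GENCODE vM21 and promoter windows from RefSeq. Ratios and correlations used line means and residuals and were not tested, and their shares over all gene pairs were added after seeing the data. The members and lists were chosen with earlier results of these data known. Named genes were the 10 members, at most 3 of each list by smallest p in each comparison, and the 5 genes most like Ctcf. Smchd1, the cell type markers, and Ccnb1 and Ccne2, the cell cycle genes that passed in neither genotype, were named besides. Lines were not paired by replicate number in the main fit. The deviations of 8 same-numbered pairs correlated at -0.48 to 0.14, and so few pairs cannot show that lines were unpaired. Some B6GFP lines share a number across genotypes, such as 38.5 in B6GFP_WT and 38.1 in B6GFP_MD43, both replicate 3. Alternatives were no weights, all 24 columns, no line block, line means, a replicate block, B6GFP lines with a shared number as 1 block, genes above 1 CPM in at least 4 libraries, median centring, a pseudocount of 1 CPM, single batches, and leaving out each of 17 lines. Dropping the B6GFP libraries of batch 3 was added after seeing the weights.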

Additional observations from a re-analysis of the deposited data

Results flagged for a closer look

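In groups of 4 or 5 lines, each gene was examined for 1 line far from the others in 40 sets of lines, of which chance alone flags about 1 in 20. A gap was found in 1 set. Mau2 in FVB_MD43 replicate 4 was at 6.36 log2 CPM, below the other 3 lines, which lay between 6.41 and 6.42. The gap of this line was 0.86 of the range of the group, against a critical value of 0.829. The range of the whole group was small, and leaving the line out left the MommeD43 change of Mau2 without a call.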

How the results depend on the processing

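Members past the threshold for B6GFP against FVB in wild type numbered 5, and 0 without quality weights, 2 with line means, 0 in batch 1 alone and 3 without the B6GFP libraries of batch 3. In MommeD43 they numbered 3, and 0 without weights, 9 with all 24 columns, 6 with line means, 1 with the replicate block and 1 in batch 1 alone. Over all genes the wild type count was 6132, and 1259, 5319, 5095 and 5894 in those settings. In MommeD43 it was 5124, and 1017, 13991, 6643, 4870 and 3596. Leaving out 1 line gave 4014 to 6400 genes in wild type and 4644 to 8179 in MommeD43. Leaving out 1 line gave 0 to 5 members in wild type, 1 to 7 in MommeD43, 0 to 1 for MommeD43 in FVB, and 0 throughout for MommeD43 in B6GFP and for the difference between strains. In the comparisons with MommeD43 no other alternative called a member, although the genes called in FVB went from 11 to 1 without weights, 510 with all 24 columns and 137 with the replicate block. In B6GFP they went from 0 to 480 with all 24 columns. Beside the members named above, the replicate block changed no call of MommeD43 against wild type, and with it 0 members passed in each strain. Apart from the setting named, the cause of these shifts was not tested.

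Values near 0 that were past no threshold changed sign as follows. For MommeD43 in FVB, batch 1 alone gave -0.01 for Rad21, Nipbl and Wapl, no weights gave 0.03 for Stag1 and 0.02 for Stag2 and Pds5a, and all 24 columns gave 0.01 for Stag1 and 0.02 for Pds5a. The replicate block gave 0.01 for Stag1 and Stag2, 0.06 for Pds5a and 0.02 for Pds5b. Batch 2 alone gave 0.14 for Stag1, 0.12 for Stag2, 0.19 for Pds5a and 0.05 for Pds5b, and line means gave -0.02 for Wapl. Leaving out 1 line gave ranges of -0.08 to 0.01 for Stag1, -0.06 to 0.02 for Stag2, -0.04 to 0.05 for Nipbl, -0.05 to 0.07 for Wapl, -0.08 to 0.03 for Pds5a, -0.06 to 0.01 for Pds5b and -0.04 to 0.21 for Esco1. For MommeD43 in B6GFP, line means gave 0.04 for Rad21 and Nipbl, and batch 3 alone gave -0.04 for Stag1, 0.02 for Nipbl, 0.10 for Mau2 and -0.01 for Pds5a. Mau2 was 0.09 without weights and 0.05 both with all 24 columns and with the replicate block. The ranges were -0.11 to 0.05 for Rad21, -0.07 to 0.04 for Stag2, -0.09 to 0.01 for Nipbl and -0.09 to 0.09 for Mau2.

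For the difference between strains, line means gave 0.02 for Rad21, 0.01 for Nipbl and 0.06 for Wapl, no weights gave -0.03 for Stag1, -0.05 for Stag2 and 0.06 for Mau2, and all 24 columns gave -0.04 for Stag2 and 0.01 for Mau2. The replicate block gave -0.05 for Stag2 and -0.04 for Pds5a, and batch 1 alone 0.02 for Wapl. The ranges were -0.14 to 0.02 for Rad21, -0.05 to 0.06 for Stag2, -0.11 to 0.01 for Nipbl, -0.12 to 0.05 for Mau2, -0.06 to 0.05 for Wapl and -0.22 to 0.04 for Esco1. For B6GFP against FVB, Esco1 in wild type was -0.02 with line means, with a range of -0.03 to 0.10. In MommeD43 it was -0.05 without weights, with line means and in batch 1 alone, -0.06 with all 24 columns and -0.12 with the replicate block, with a range of -0.17 to 0.08. Pds5b was 0.02 with median centring there, and the ranges were -0.02 to 0.17 for Rad21 and -0.01 to 0.12 for Stag2. Depth limits the FVB libraries of batch 2, at 0.137 to 0.19 of the greatest depth.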
